A study of Mus musculus with 27 samples.

Results

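The transcripts described here are those of Lin28b and of the genes that make, load and destroy microRNAs in mouse CD8 T cells. The 10 members were chosen by name, as the RNA-binding protein Lin28b together with Drosha, Dgcr8, Xpo5, Dicer1, Tarbp2, Ago1, Ago2, Ago3 and Dis3l2, out of 35275 genes measured, and all 10 passed the filter on low values among the 14449 genes tested over 27 libraries. RNA was sequenced from P14+ CD8 T cells, which carry a transgenic T cell receptor for a viral peptide, from WT, lin28Tg and let-7Tg mice at 3 stages with n = 3 libraries per genotype and stage. The stages were naive cells from lymph nodes without culture, cells activated for 12 h with anti-CD3 (2 μg/mL) and anti-CD28 (5 μg/mL), and cytotoxic T lymphocytes (CTLs) at day 5, raised on irradiated splenocytes with anti-CD3 (2 μg/mL) and given IL-2 (100 U/mL) after the second day. Doxycycline (2 μg/mL) was in the medium of every genotype at 12 h and at day 5, and the study's methods give it in the drinking water of controls as well. Those methods describe the P14+ transgenic lines as Rag2-/- and use mice of both sexes aged 6 to 10 weeks. The let-7 transgene is a doxycycline-inducible let-7g, while the promoter of the lin28 transgene is not given in the sources used here. The study calls the libraries biological replicates but does not say whether each came from its own animal, so the p-values measure the spread between these libraries.

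MicroRNAs are cut from long primary transcripts in the nucleus by the microprocessor, in which the RNase III enzyme Drosha works with the double-stranded RNA-binding protein Dgcr8. Exportin-5, encoded by Xpo5, carries the resulting hairpin to the cytoplasm, where Dicer1 and its partner Tarbp2 cut it to a duplex, and 1 strand is loaded into an Argonaute protein, which silences transcripts that pair with the microRNA's seed. Lin28b binds the precursors of the let-7 family and prevents their maturation, in part by recruiting enzymes that add uridines to the precursor, and the exonuclease Dis3l2 degrades the uridylated product. Let-7 in turn silences Lin28b through sites in its 3′ UTR. In CD8 T cells let-7 is abundant in the naive state and falls on activation. The libraries hold messenger RNA levels of these genes, and levels of mature microRNAs and of proteins were not analysed here.

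The let-7 family is shown first, since the transgenes act on it. The RefSeq table used (GRCm38.p6) held mature sequences for 11 let-7 and miR-98 genes, 9 of them distinct and all with the seed GAGGUAG at bases 2 to 8, printed in capitals.
let-7a: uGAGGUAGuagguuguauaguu
let-7b: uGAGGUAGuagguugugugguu
let-7c: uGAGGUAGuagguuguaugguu
let-7d: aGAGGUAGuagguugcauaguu
let-7e: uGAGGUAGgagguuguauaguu
let-7f: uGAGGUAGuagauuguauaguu
let-7g: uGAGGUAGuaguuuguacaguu
let-7i: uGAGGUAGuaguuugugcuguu
miR-98: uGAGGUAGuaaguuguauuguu
The members differ only outside the seed, and let-7g, the form carried by the let-7 transgene, lies at chr9:106178846-106178867 on the plus strand. Its hairpin, at chr9:106178840-106178927, is shown because it is the molecule on which Lin28b, Dicer1 and Dis3l2 act, with the letters GGAG, the core of the known Lin28 binding motif, in capitals.
let-7g hairpin: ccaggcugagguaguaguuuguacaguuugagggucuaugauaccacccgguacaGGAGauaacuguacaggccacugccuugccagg
GGAG was present in 9 of the 12 let-7 and miR-98 hairpins. It was absent from the hairpins of Mirlet7b, Mirlet7c-2 and Mir98. Of all 1005 hairpins in the same table, 447, or 44.5%, held GGAG, so the letters alone are common.

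The libraries held 13862706 to 23591069 reads, and the members other than Lin28b had between 427 reads (Dis3l2) and 10179 reads (Ago2) in a library, so counting error was small for them. Values are given as deposited FPKM, that is, fragments normalised by the authors to a length per gene and to library depth. That length was close to the longest coding transcript for Ago2 (13705 of 13800 bases). For Ago1 (2752 of 7227 bases) and Ago3 (3106 of 15595 bases) it was far shorter. Levels of different genes are therefore not strictly comparable, while levels of 1 gene between libraries are not affected. T cell genes (Cd3d, Cd3e, Cd3g, Cd8a, Cd8b1 and Cd2) were present in every library, with a summed level of 2698 to 3686 FPKM in naive cells, 653 to 982 FPKM at 12 h and 1503 to 2362 FPKM at day 5. Myeloid and erythroid markers were highest in the naive lin28Tg libraries. Naive lin28Tg libraries held 233 to 1109 FPKM over 8 myeloid genes and 375 to 1494 FPKM over 5 erythroid genes, against 52.7 to 93.8 and 113 to 217 FPKM in WT and 36.8 to 87.9 and 1.52 to 35.3 FPKM in let-7Tg. Sums of CD4 T cell genes (24.0 to 83.3 against 12.5 to 23.3 FPKM in WT) were also higher in naive lin28Tg. So were those of NK cell genes (29.6 to 86.6 against 13.5 to 27.2 FPKM) and B cell genes (29.0 to 33.2 against 18.8 to 21.5 FPKM). Within these lists Cd40lg (CD4 T cell) and Cd79a (B cell) were lower in naive lin28Tg than in WT. The sum of 5 stromal and endothelial markers had the reverse order of the myeloid and erythroid sums. It was 40.9 to 48.0 FPKM in naive lin28Tg, 63.6 to 64.8 FPKM in WT and 69.6 to 76.0 FPKM in let-7Tg. That order did not hold for each gene of the list. Col1a2 was at 0.703 to 2.40 FPKM in naive lin28Tg, 0 to 0.0848 FPKM in WT and 0 to 0.115 FPKM in let-7Tg. In bulk libraries a change in the share of a cell type and a change in RNA per cell cannot be told apart. As a check of the labels, Col1a1, in whose locus the inducible let-7g lies, was at 9.06 to 62.8 FPKM in the let-7Tg libraries and at 0.0716 to 1.43 FPKM in the WT libraries.

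Lin28b was abundant in lin28Tg cells and close to absent in the other genotypes at every stage. In naive lin28Tg cells it stood at 67.9, 56.4 and 66.1 FPKM (63.5 ± 6.16, SD, n = 3), which was the highest level of Lin28b in the series. At 12 h it stood at 12.6, 10.2 and 9.94 FPKM (10.9 ± 1.45), and at day 5 at 21.9, 14.0 and 22.4 FPKM (19.4 ± 4.70). The lowest naive lin28Tg library was thus above the highest day 5 library, and the lowest day 5 library was above the highest 12 h library. Between naive and 12 h the log2 level of Lin28b in lin28Tg cells fell by 2.26 (limma, Benjamini-Hochberg adjusted p = 2.49e-12), and from 12 h to day 5 it rose by 0.72 (adjusted p = 6.88e-05), with a difference of -1.53 between day 5 and naive cells (adjusted p = 1.7e-09).

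In the other genotypes Lin28b was covered by 0 to 5 reads per library. WT libraries held 5, 0 and 0 reads in naive cells, 0, 2 and 5 reads at 12 h and 0, 0 and 0 reads at day 5, and let-7Tg libraries held 3, 0 and 0, then 3, 1 and 1, then 1, 3 and 1 reads. Every lin28Tg library held at least 921 reads, so the groups did not overlap. Reads summed over the 3 libraries and divided by their summed depth were 2979-fold higher in naive lin28Tg than in naive WT cells (95% interval 1276.5 to 9177), 390.0-fold higher at 12 h (189 to 971) and at least 1957-fold higher at day 5, where WT held 0 reads and the bound uses 3 reads over the group. Against let-7Tg the ratios were 4899 in naive cells (1676 to 23757), 554 at 12 h (237 to 1708) and 1299.5 at day 5 (557 to 4004). These intervals cover counting error only. Lin28b is at chr10:45376620-45486395 on the minus strand, and reads from the transgene and from the endogenous gene cannot be told apart in these values. The paralog Lin28a was at 0 to 0.313 FPKM in all 27 libraries.

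**Figure D1:**
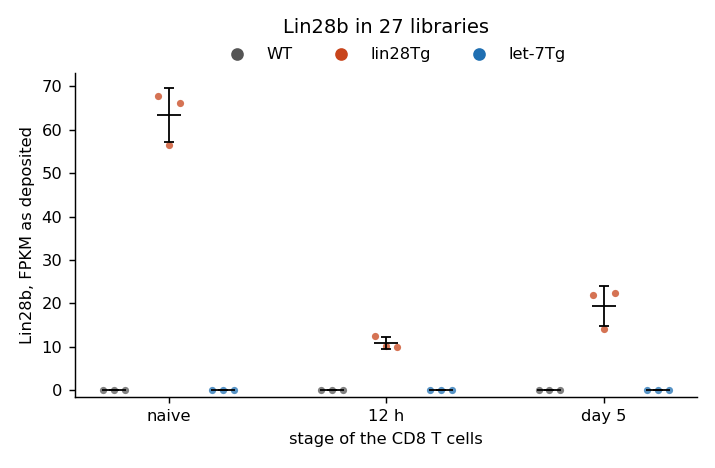
Lin28b in each of the 27 libraries, as deposited FPKM on a linear axis, by stage and genotype, with points for libraries and bars for mean ± SD (n = 3). The lin28Tg libraries are at 56.4 to 67.9 FPKM in naive cells, 9.94 to 12.6 FPKM at 12 h and 14.0 to 22.4 FPKM at day 5, and the WT and let-7Tg libraries lie on the zero line at this scale.

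Which members of the machinery differed in cells with a lin28 or a let-7 transgene was read from 3 comparisons per stage, each fitted over all genes with limma on log2(scaled FPKM + 0.5), a scale that understates changes of low genes. A gene was called where the adjusted p over all genes tested was under 0.05. Against WT, lin28Tg cells differed in Lin28b alone in naive cells (1 of 10 members called, where 34.9% of all genes tested were called). At 12 h they differed in 5 members (8.49% of all genes), Lin28b, Tarbp2, Dicer1, Ago1 and Ago3, and at day 5 in Lin28b alone (4.35%). Lin28b is the transgene of lin28Tg cells and passed the filter on low values through those libraries alone. Its call was thus set by the design and is no result about the machinery. The replicate number was also used as a block, since a check of these same data, not the labels, took it to pair the day 5 cultures. With this block 4 members passed at day 5, the added ones being Dicer1, Ago2 and Dgcr8. The 4.35% of all genes belongs to the fit without the block. Whether the block added more calls among the members than among all genes was not tested. The fitted Lin28b difference depends on the pseudocount and is left to the read ratios above. Of the other 9 members, 1 in naive cells, 4 at 12 h and 5 at day 5 were below an unadjusted p of 0.05. Their log2 differences ran from -0.30 to 0.19 in naive cells, -0.49 to 0.50 at 12 h and -0.32 to 0.54 at day 5, with medians of -0.11, 0.09 and 0.09 against medians of -0.04, -0.01 and 0.00 over all genes.

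Against WT, let-7Tg cells showed fewer differences in these genes. No member was called in naive cells (0.935% of all genes were called), Tarbp2 alone was called at 12 h (3.26%), and no member was called at day 5 (0.937%), where the block added Dgcr8. Besides limma on the log scale, voom weights on the recovered reads also gave 0 members in naive cells and 0 at day 5, and 1 member was below an unadjusted p of 0.05 at each of those stages. Between the 2 transgenic genotypes, 4 members were called in naive cells (44.3% of all genes), 6 at 12 h (30.9%) and 5 at day 5 (21.6%). With the block it was 6 at day 5. Lin28b, the transgene, was among those called at each stage. The 3 comparisons of a stage share libraries and are not independent. The percentages of all genes called, here and below, are for adjusted p in limma without the block. For counts with the block, with voom weights or by unadjusted p the share of all genes is not given here. Those counts are therefore not compared with a background. In deposited FPKM, the lin28Tg and WT libraries did not overlap for 3 members in naive cells, 7 at 12 h and 7 at day 5. Lin28b was counted at each stage. Over all genes tested the shares without overlap were 49.0%, 34.8% and 24.2%. The let-7Tg and WT libraries did not overlap for 2, 5 and 3 members, against 24.0%, 25.2% and 17.1% of all genes. The day 5 count of 3 includes Lin28b, at 1, 3 and 1 reads in let-7Tg against 0, 0 and 0 in WT, which is too few to order.

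**Figure D2:**
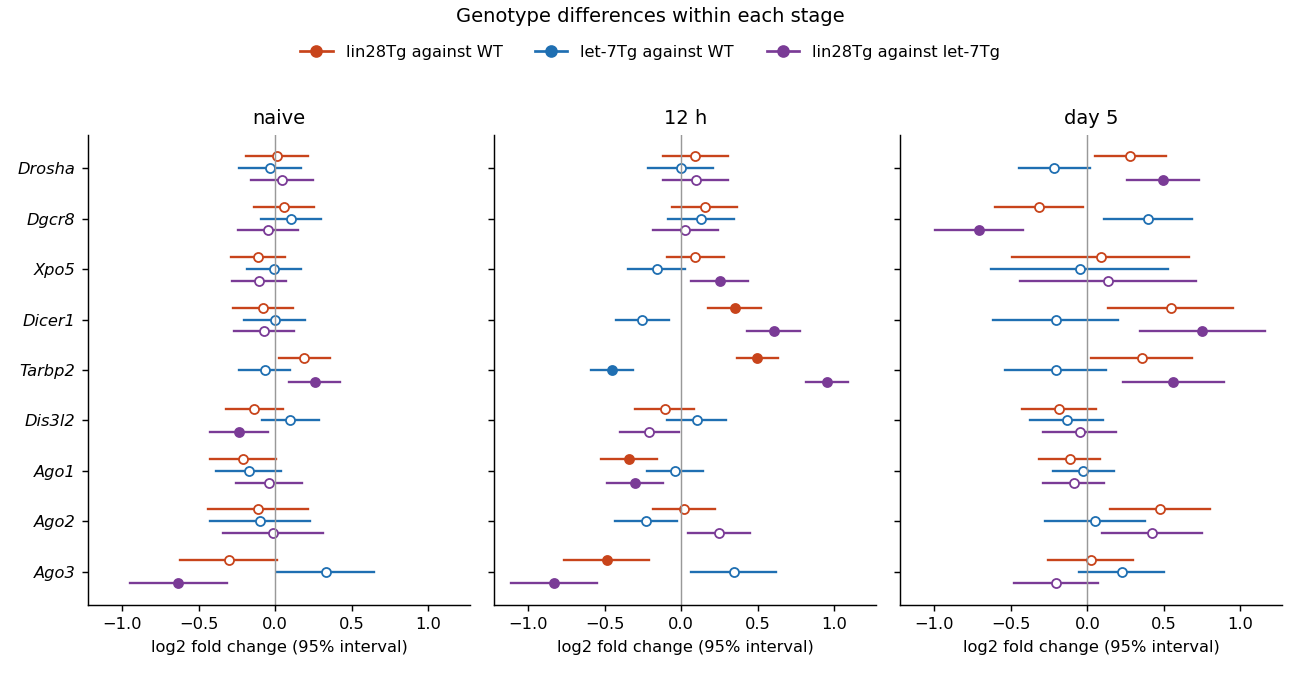
Log2 fold change with its 95% interval for the 9 members other than Lin28b (rows) in naive cells, at 12 h and at day 5 (panels), for lin28Tg against WT, let-7Tg against WT and lin28Tg against let-7Tg, with filled points where the adjusted p was under 0.05. Tarbp2 at 12 h is the point farthest to the right, at 0.95 for lin28Tg against let-7Tg, and Dgcr8 and Drosha lie on opposite sides of 0 at day 5.

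The microprocessor subunits moved in opposite directions between the transgenic genotypes at day 5. Drosha, at chr15:12824815-12935291, was at 28.8, 31.2 and 27.7 FPKM in lin28Tg CTLs, 25.0, 24.3 and 25.4 FPKM in WT CTLs and 21.0, 21.1 and 24.5 FPKM in let-7Tg CTLs. Dgcr8, at chr16:18253948-18289246, was at 24.3, 25.5 and 26.99 FPKM in lin28Tg, 29.6, 31.5 and 39.2 FPKM in WT and 44.3, 44.6 and 47.4 FPKM in let-7Tg. The 3 genotypes did not overlap for Dgcr8, and for Drosha only WT replicate 2, at 24.3 FPKM, lay below the highest let-7Tg library. Drosha was 1.41-fold higher in lin28Tg than in let-7Tg CTLs (log2 0.50, 95% interval 0.26 to 0.73, adjusted p = 0.00926, limma), and Dgcr8 was at 0.611 of its let-7Tg level (log2 -0.71, -0.997 to -0.42, adjusted p = 0.00464).

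Against WT at day 5, neither subunit passed the test without the block. Dgcr8 differed by -0.32 in lin28Tg (adjusted p = 0.210, or 0.0483 with the replicate block) and by 0.39 in let-7Tg (adjusted p = 0.208, or 0.0474 with the block), and Drosha differed by 0.28 (adjusted p = 0.174) and -0.21 (adjusted p = 0.450). The log2 ratio of Drosha to Dgcr8 put the genotypes in order, at 0.25, 0.29 and 0.04 in lin28Tg CTLs, -0.24, -0.38 and -0.63 in WT CTLs and -1.08, -1.08 and -0.95 in let-7Tg CTLs. The 3 groups were apart, with differences of 0.61 for lin28Tg against WT, -0.62 for let-7Tg against WT and 1.23 between the transgenic genotypes. Each had an exact two-sided permutation p of 0.1, the smallest that 3 against 3 libraries can give. Adjusted over 18 comparisons, of this ratio and of the Ago2 share below, it was 0.2. Ratios of Dicer1 to Tarbp2 and to Drosha, and shares of the other Argonautes, were computed but not tested. In naive cells and at 12 h the group means of this ratio lay between -0.28 and -0.04. The sign of the ratio depends on the length used for each gene, while differences in it between libraries do not. Exons of Dgcr8 overlap those of Trmt2a on the opposite strand, whose own difference between lin28Tg and let-7Tg CTLs was -0.10 (adjusted p = 0.763), and those of Gm24572, Gm49776 and Mir1306, and exons of Drosha overlap Gm47288. Among day 5 libraries the 8 myeloid genes summed to 33.5 to 109 FPKM in lin28Tg, 5.95 to 12.7 FPKM in WT and 4.84 to 7.68 FPKM in let-7Tg, and 4 NK cell genes to 63.5 to 161, 10.6 to 43.6 and 3.01 to 6.23 FPKM. Fcer1g, at 22.1 to 102 FPKM in lin28Tg, made up most of the myeloid sum there and Klrb1c, at 60.8 to 158 FPKM, most of the NK cell sum. Of the other genes on these lists, Lyz2, Csf1r, Adgre1, S100a8 and C1qa (myeloid) and Ncr1 and Klra8 (NK cell) were at or near 0 in all 9 libraries. The rest were not. In lin28Tg, WT and let-7Tg, Itgam was at 1.14 to 3.56, 0.183 to 0.720 and 0.0342 to 0.328 FPKM. Cd68 was at 6.05 to 7.87, 3.54 to 5.14 and 3.41 to 5.72 FPKM, and Klre1 at 2.73 to 3.49, 1.15 to 2.97 and 0.862 to 1.52 FPKM. The part of other cell types in the day 5 differences was not tested.

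Before day 5 no genotype difference in Drosha or Dgcr8 was called. In naive cells Drosha was at 21.3 to 27.1 FPKM and Dgcr8 at 24.5 to 31.7 FPKM over all 9 libraries, and at 12 h the ranges were 40.7 to 50.0 FPKM and 42.8 to 55.8 FPKM. The log2 differences from WT lay between -0.03 and 0.15 for both genes, both stages and both transgenic genotypes, and the 95% interval for Dgcr8 in lin28Tg at 12 h ran from -0.06 to 0.37. Naive Dgcr8 in let-7Tg, at 27.7 to 31.4 FPKM, nevertheless lay above WT, at 24.5 to 27.5 FPKM, without overlap. At 12 h the log2 ratio of Drosha to Dgcr8 in let-7Tg, at -0.23 to -0.11, lay below that in WT, at -0.07 to 0.02 (difference -0.13, exact two-sided permutation p = 0.1, adjusted 0.2).

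Xpo5, at chr17:46202782-46243598, encodes the export receptor, and its genotype difference was called in 1 comparison. At 12 h it was at 44.1, 42.3 and 45.1 FPKM in lin28Tg, 40.5, 40.0 and 41.2 FPKM in WT and 39.1, 34.1 and 37.8 FPKM in let-7Tg. These groups did not overlap, and the difference between the transgenic genotypes was 0.25 on the log2 scale (0.07 to 0.44, adjusted p = 0.0441). That call was lost without any lin28Tg replicate (adjusted p 0.0894, 0.0863 and 0.133 without replicates 1, 2 and 3) and without let-7Tg replicate 2, where the difference was 0.16 (0.0779). It was also lost without the filter on low values (0.0729), without the intensity trend (0.0696), with only the 6 libraries compared (0.0727) and with all 27 libraries in one fit (0.287). At day 5 replicate 3 was the highest Xpo5 library of every genotype, at 31.9 FPKM in WT, 25.7 FPKM in lin28Tg and 28.2 FPKM in let-7Tg, against 16.9 to 22.8 FPKM in the other 6 libraries. No genotype difference in Xpo5 was called at day 5, where the interval for lin28Tg against WT ran from -0.49 to 0.66.

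Tarbp2 was the member with the largest genotype difference after Lin28b. It lies at chr15:102518192-102523676 and encodes the RNA-binding partner of Dicer. At 12 h it was at 99.7, 99.9 and 97.5 FPKM in lin28Tg, 71.5, 65.8 and 70.3 FPKM in WT and 51.6, 51.7 and 50.6 FPKM in let-7Tg. The groups were far apart relative to their spread (SD 1.34, 3.00 and 0.631). Tarbp2 was 1.41-fold higher in lin28Tg than in WT (log2 0.50, 0.36 to 0.63, adjusted p = 0.00147), lower in let-7Tg than in WT (log2 -0.45, -0.59 to -0.32, adjusted p = 0.0145) and 1.94-fold higher in lin28Tg than in let-7Tg (log2 0.95, 0.82 to 1.09, adjusted p = 2.13e-05). The let-7Tg call was lost without WT replicate 1 (adjusted p = 0.0548) or WT replicate 3 (0.0764), with log2 differences of -0.43 and -0.44, and with only the 6 libraries compared (0.0546).

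In naive cells and at day 5 the group means of Tarbp2 had the same order with smaller differences. Naive lin28Tg cells held 63.5, 70.2 and 67.6 FPKM, WT cells 53.8, 54.7 and 60.5 FPKM and let-7Tg cells 53.6, 59.2 and 54.6 FPKM. The lin28Tg libraries were above all others, with a log2 difference of 0.19 from WT (adjusted p = 0.0702) and 0.26 from let-7Tg (adjusted p = 0.0182), the last lost without lin28Tg replicate 2 (0.0584) or let-7Tg replicate 3 (0.0616). At day 5 the levels were 53.6, 48.7 and 45.4 FPKM in lin28Tg, 49.8, 38.7 and 32.7 FPKM in WT and 38.3, 31.2 and 38.1 FPKM in let-7Tg. The WT libraries overlapped both transgenic groups there, and only lin28Tg against let-7Tg was called (log2 0.56, adjusted p = 0.0242). Without any one of lin28Tg replicates 1 to 3 or let-7Tg replicates 1 and 2 this adjusted p lay between 0.0521 and 0.0871, and without scaling between libraries it was 0.0621.

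Dicer1, the RNase III enzyme that cuts the precursor hairpin (chr12:104687742-104751952), was likewise higher in lin28Tg cells after activation. At 12 h it was at 16.0, 16.6 and 17.0 FPKM in lin28Tg, 12.9, 12.9 and 12.2 FPKM in WT and 11.2, 11.2 and 10.0 FPKM in let-7Tg, again without overlap. At day 5 it was at 15.2, 16.4 and 17.4 FPKM in lin28Tg, 9.31, 11.4 and 14.1 FPKM in WT and 9.40, 9.29 and 12.2 FPKM in let-7Tg. The lin28Tg libraries were above every other library at both stages, while WT and let-7Tg overlapped at day 5. In naive cells all 9 libraries lay between 13.01 and 16.1 FPKM.

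Dicer1 was 1.28-fold higher in lin28Tg than in WT at 12 h (log2 0.35, 0.18 to 0.52, adjusted p = 0.0239) and 1.52-fold higher than in let-7Tg (log2 0.60, 0.43 to 0.78, adjusted p = 0.000605). The call against WT was lost without WT replicate 1, 2 or 3 (adjusted p 0.0691, 0.0562 and 0.0834) and without lin28Tg replicate 2 or 3 (0.0976 and 0.0973), at log2 differences of 0.33 to 0.37, and with all 27 libraries in one fit (0.119). At day 5 Dicer1 was 1.68-fold higher in lin28Tg than in let-7Tg (log2 0.75, 0.34 to 1.16, adjusted p = 0.0175), a call lost without lin28Tg replicate 2 or 3 (0.0584 and 0.0666) or let-7Tg replicate 1 or 2 (0.0691 and 0.0694). Against WT at day 5 the difference was 0.54 (adjusted p = 0.139, or 0.0186 with the replicate block). The naive differences were -0.08 against WT (-0.27 to 0.12) and -0.07 against let-7Tg (-0.27 to 0.12). At 12 h, myeloid genes summed to 14.6 to 30.8 FPKM in lin28Tg and 10.3 to 17.1 FPKM in WT, and erythroid genes to 60.2 to 527 and 19.7 to 81.3 FPKM. Their part in the 12 h differences was not tested.

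**Figure D3:**
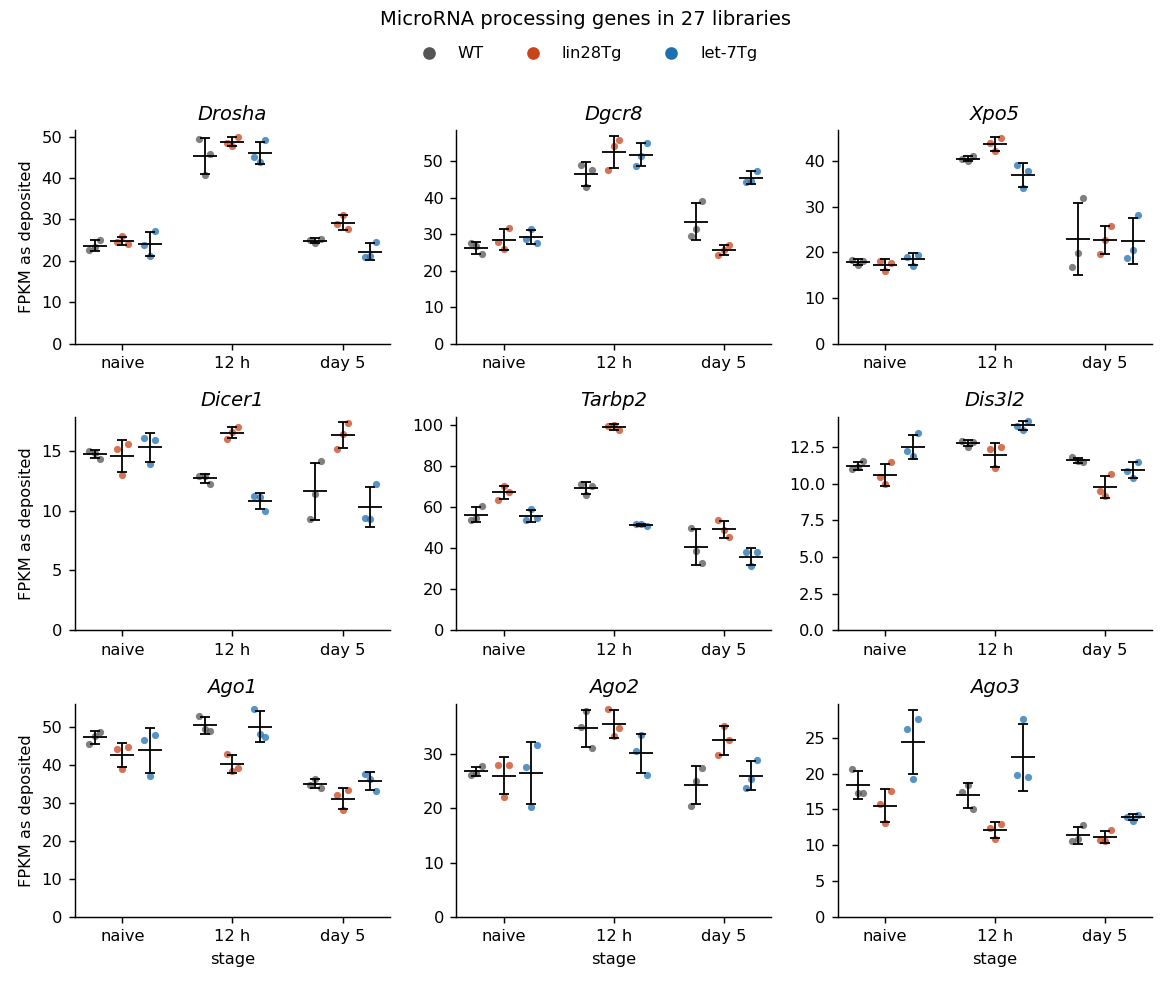
Deposited FPKM of the 9 members other than Lin28b (panels, each with its own axis from 0) by stage and genotype, with points for libraries and bars for mean ± SD (n = 3). Tarbp2 at 12 h shows 3 tight separate groups at 97.5 to 99.9, 65.8 to 71.5 and 50.6 to 51.7 FPKM, and Dicer1 in lin28Tg stays at 15.2 to 17.4 FPKM from 12 h to day 5.

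The Argonautes, which hold the mature microRNA, did not move as a group. Ago3 (chr4:126331704-126429556) and Ago1 (chr4:126435012-126468583) are neighbours on the minus strand of chromosome 4 and were lower in lin28Tg at 12 h. Ago3 was then at 12.4, 10.8 and 13.01 FPKM in lin28Tg, 17.4, 18.5 and 15.05 FPKM in WT and 19.8, 27.7 and 19.5 FPKM in let-7Tg. Ago1 was at 43.0, 38.5 and 39.4 FPKM in lin28Tg, 53.2, 49.6 and 49.0 FPKM in WT and 54.9, 48.2 and 47.6 FPKM in let-7Tg. For both genes every lin28Tg library was below every library of the other genotypes, and for Ago1 the WT and let-7Tg libraries overlapped.

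Against WT at 12 h, Ago3 differed by -0.49 (-0.77 to -0.21, adjusted p = 0.0413) and Ago1 by -0.34 (-0.53 to -0.16, adjusted p = 0.0326). The Ago3 call was lost on leaving out any of the 6 libraries (WT replicates 1 to 3 gave 0.131, 0.108 and 0.0538, lin28Tg replicates 1 to 3 gave 0.0871, 0.155 and 0.0746), and also without scaling (0.0785), without the filter (0.0608), without the intensity trend (0.0528) and with the replicate block (0.0582). The Ago1 call was lost without WT replicates 1 to 3 (0.124, 0.0589 and 0.0793) and lin28Tg replicates 2 and 3 (0.13 and 0.108), without the filter (0.0587) and without the trend (0.0582). Between lin28Tg and let-7Tg at 12 h, Ago3 differed by -0.83 (-1.11 to -0.55, adjusted p = 0.00131) and Ago1 by -0.30 (adjusted p = 0.0214), the last lost without lin28Tg replicates 2 or 3 (0.0801 and 0.0681) or let-7Tg replicate 1 (0.0556). In naive cells Ago3 was at 15.8, 13.2 and 17.6 FPKM in lin28Tg and 26.2, 19.3 and 27.6 FPKM in let-7Tg, a difference of -0.63 (-0.95 to -0.31, adjusted p = 0.00586), with WT between them at 20.7, 17.3 and 17.3 FPKM. At day 5 all Ago3 libraries lay between 10.5 and 14.3 FPKM, and lin28Tg differed from WT by 0.02 (-0.26 to 0.30). Ago1, Ago2 and Ago3 are related in sequence, and how reads shared between them were counted is not given in the sources used here.

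Ago2 (chr15:73095844-73184935), the Argonaute that can cleave its target, stood highest in lin28Tg at day 5. It was at 29.8, 35.3 and 32.6 FPKM in lin28Tg CTLs, 20.5, 25.1 and 27.4 FPKM in WT CTLs and 23.8, 25.4 and 29.0 FPKM in let-7Tg CTLs. The lin28Tg libraries were above all others. The log2 difference was 0.47 from WT (0.15 to 0.80, adjusted p = 0.111, or 0.0172 with the replicate block) and 0.42 from let-7Tg (adjusted p = 0.0663, or 0.0095 with the block). Exons of Ago2 overlap those of Chrac1 on the opposite strand, which differed by -0.08 (adjusted p = 0.749) and -0.13 (adjusted p = 0.413) in the same comparisons.

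As a share of the summed Ago1, Ago2, Ago3 and Ago4 FPKM within a library, Ago2 was 28.9% ± 0.639 in WT, 30.3% ± 1.32 in lin28Tg and 27.7% ± 1.56 in let-7Tg naive cells. At 12 h it was 33.9% ± 1.65, 40.4% ± 0.523 and 29.3% ± 1.27, and at day 5 34.1% ± 2.96, 43.4% ± 3.61 and 34.2% ± 3.33 (SD, n = 3 each). The share was thus highest in lin28Tg at both activated stages, with no overlap with WT, and every let-7Tg library was below every WT library at 12 h but not at day 5. The lin28Tg against WT differences of 6.44 and 9.26 percentage points each had an exact two-sided permutation p of 0.1, the smallest the design allows, and 0.2 over the same 18 comparisons. Ago4 was at most 2.64% of the sum in any library. These shares depend on the length used for each gene, which was 13705 bases for Ago2, 2752 for Ago1 and 3106 for Ago3. In reads, naive WT libraries held 5147 to 5673 for Ago2 and 1856 to 1977 for Ago1.

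**Figure D4:**
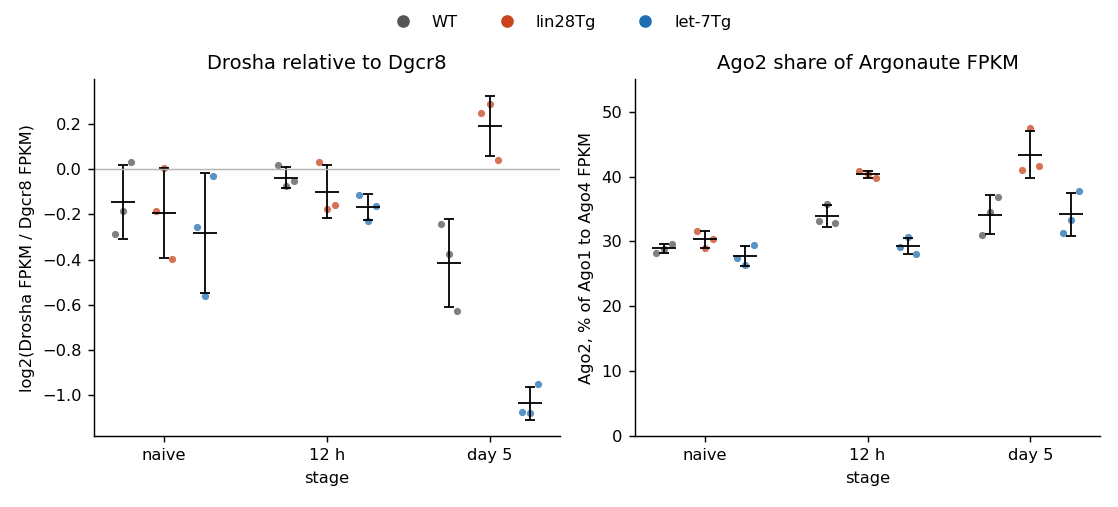
Left, log2 of the Drosha to Dgcr8 FPKM ratio per library, and right, Ago2 as a percentage of the summed FPKM of Ago1 to Ago4, by stage and genotype, with points for libraries and bars for mean ± SD (n = 3). At day 5 the ratio is above 0 in the 3 lin28Tg libraries and at -0.95 or below in the 3 let-7Tg libraries, and the Ago2 share is 41.0% or more in lin28Tg.

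Dis3l2, the exonuclease for uridylated let-7 precursors (chr1:86703808-87050095), varied least of the 10 members, from 9.18 to 14.3 FPKM over all libraries. In naive cells it was at 10.4, 9.95 and 11.4 FPKM in lin28Tg and 12.2, 11.9 and 13.4 FPKM in let-7Tg, with WT at 10.99, 11.1 and 11.5 FPKM. The lin28Tg and let-7Tg libraries did not overlap, and the difference was -0.24 (-0.42 to -0.05, adjusted p = 0.0456). That call was lost on leaving out any of the 6 libraries (adjusted p 0.0901, 0.128 and 0.052 without lin28Tg replicates 1 to 3, and 0.0912, 0.0565 and 0.144 without let-7Tg replicates 1 to 3). It was also lost without scaling (0.0594), with median of ratios scaling (0.063) and with only the 6 libraries compared (0.114). Against WT, Dis3l2 differed by -0.18 to 0.10 over the 3 stages and both transgenic genotypes, with no call.

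Which of these transcripts carry the complement of the let-7 seed was read from the longest coding transcript of each gene (GRCm38, GENCODE M21). The heptamer CTACCTC, searched on the transcript strand, was present in 1857 of 21037 annotated 3′ UTRs, or 8.83%, whose median length was 934 bases. Lin28b held 4 matches in 4445 bases, Ago2 held 3 in 11064 bases, Tarbp2 held 1 in 334 bases and Ago3 held 1 in 12742 bases. None was found in the 3′ UTRs of Drosha, Dgcr8, Xpo5, Dicer1, Ago1 and Dis3l2, which were 168 to 4491 bases long. The sites are printed with 10 bases on either side, in the sense of the transcript, and with the match in capitals, because they are the letters with which let-7 could pair.
Lin28b, chr10:45381013-45381039: ggcgggaagtCTACCTCatgcaagcac
Lin28b, chr10:45378639-45378665: ttgttagtaaCTACCTCtgagtttgac
Lin28b, chr10:45378467-45378493: cagcacatggCTACCTCccagctacca
Lin28b, chr10:45377051-45377077: atggcaccgaCTACCTCttcaatcact
Tarbp2, chr15:102523434-102523460: ggtgccatctCTACCTCtgacacagcc
Ago2, chr15:73101715-73101741: tgcataaaagCTACCTCtgacttctca
Ago2, chr15:73100031-73100057: ggcctctgtcCTACCTCcaggcactgg
Ago2, chr15:73097973-73097999: caatgtggatCTACCTCagttaaacag
Ago3, chr4:126335031-126335057: ctgccctcacCTACCTCaccaagtccc
At 12 h Tarbp2, with 1 match, was above WT in lin28Tg cells and below it in let-7Tg cells. Ago3, with 1 match, was lower in lin28Tg than in WT. Ago2, with 3 matches, had a mean of 35.5 FPKM in lin28Tg and 34.8 FPKM in WT. At day 5 its means were 32.6 and 24.3 FPKM, a difference not called without the block. Of genes with no match in this search, Dicer1 was higher and Ago1 lower in lin28Tg than in WT at 12 h. Other forms of site, coding sequence and other transcripts of a gene were not searched. A match is a description of the sequence and was not tested as a site. Whether the lin28 transgene carries the Lin28b 3′ UTR is not given in the sources used here.

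The largest differences of the members other than Lin28b were between stages. In WT cells 7 of the 10 members rose from naive to 12 h and none fell. Over all genes tested 71.0% were called in either direction, and 50.3% of the called genes were higher. From 12 h to day 5, 9 fell (67.5% of genes called, 49.0% of those higher). From naive to day 5, 1 rose and 3 fell (65.4% of genes called, 50.0% of those higher). In either direction, in the same order of comparisons, the counts were 8, 7 and 7 in lin28Tg cells (73.5%, 66.3% and 68.0% of genes). In let-7Tg cells they were 6, 8 and 4 (69.3%, 67.1% and 62.6%). With the replicate block the naive to day 5 count was 5 in WT, with Xpo5 added, and 6 in let-7Tg, with Xpo5 and Ago1 added. In naive cells the replicate numbers were not taken to pair libraries. Most of the counts above, taken in either direction, are near the background and are then no result about the members. Whether the members shared a direction more than all genes did was not tested. The stages also differ in culture and stimulus, so that stage and any batch of libraries cannot be told apart. The T cell genes above fell to between 653 and 982 FPKM in sum at 12 h.

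The largest rise at 12 h was in the nuclear and export steps. Drosha rose from 22.5, 23.4 and 25.1 FPKM in naive WT cells to 49.5, 40.7 and 45.8 FPKM at 12 h and was back at 25.0, 24.3 and 25.4 FPKM at day 5. Xpo5 rose from 18.3, 17.2 and 18.2 FPKM to 40.5, 40.0 and 41.2 FPKM and stood at 16.9, 19.9 and 31.9 FPKM at day 5. Dgcr8 went from 27.5, 26.6 and 24.5 FPKM to 48.9, 42.8 and 47.6 FPKM and then to 29.6, 31.5 and 39.2 FPKM. All 3 genes were thus highest at 12 h, with no overlap between naive and 12 h libraries.

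From naive to 12 h the log2 difference in WT, lin28Tg and let-7Tg cells was 1.17, 1.20 and 1.15 for Drosha, 1.06, 1.11 and 1.04 for Dgcr8, and 1.41, 1.56 and 1.21 for Xpo5, all called, the highest adjusted p being 1.73e-06. From 12 h to day 5 the differences were -1.003, -0.79 and -1.17 for Drosha and -1.02, -1.002 and -0.86 for Xpo5. Dgcr8 fell by 0.63, 1.08 and 0.32, so that relative to naive cells it ended at 0.43 in WT (adjusted p = 0.00141), 0.03 in lin28Tg (adjusted p = 0.832) and 0.73 in let-7Tg (adjusted p = 4.59e-06). The let-7Tg fall of Dgcr8 was lost without 12 h replicate 3 (-0.28, adjusted p = 0.0567) and without scaling between libraries (-0.18, adjusted p = 0.096). Drosha ended 0.40 above naive cells in lin28Tg (adjusted p = 0.00104), against 0.16 in WT (adjusted p = 0.150) and -0.02 in let-7Tg (adjusted p = 0.903).

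**Figure D5:**
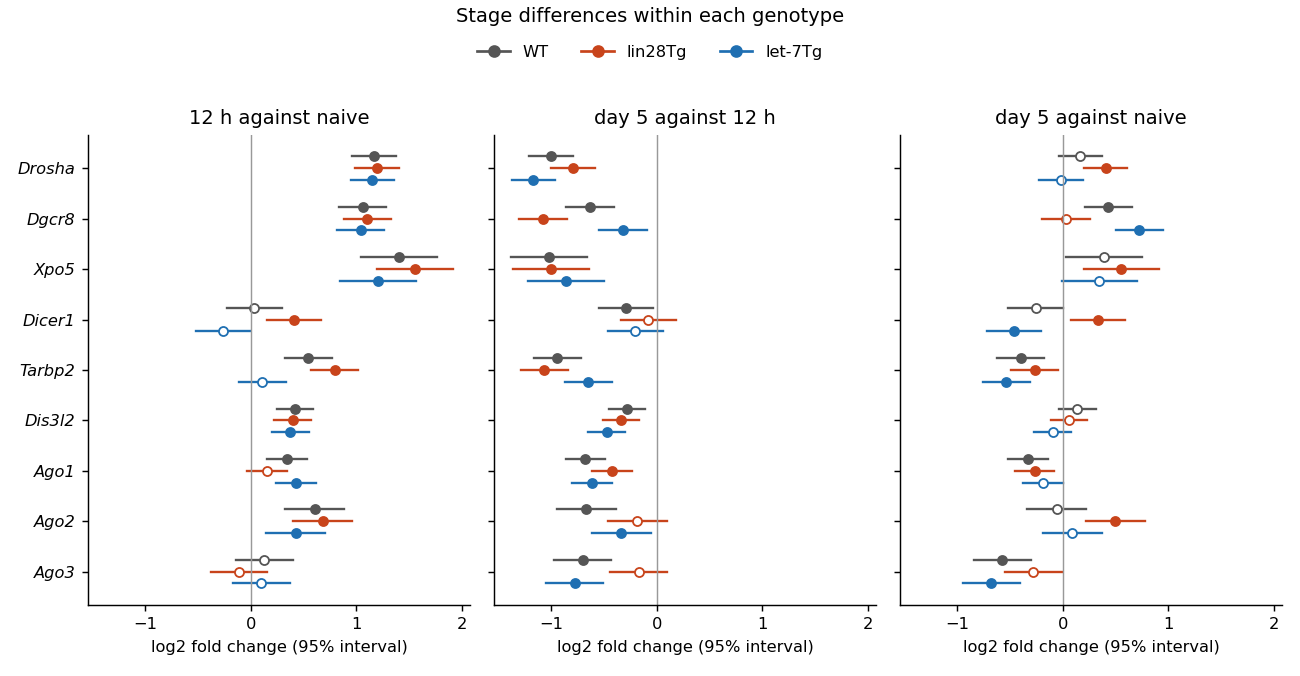
Log2 fold change with its 95% interval for the 9 members other than Lin28b (rows) for 12 h against naive, day 5 against 12 h and day 5 against naive (panels) in WT, lin28Tg and let-7Tg cells, with filled points where the adjusted p was under 0.05. Drosha, Dgcr8 and Xpo5 lie between 1.04 and 1.56 at 12 h in every genotype, and Dicer1 at 12 h lies at 0.41 in lin28Tg, 0.04 in WT and -0.26 in let-7Tg.

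In the cytoplasmic step, Tarbp2 rose from naive to 12 h by 0.54 in WT (adjusted p = 9.84e-05) and 0.80 in lin28Tg (adjusted p = 6.63e-07), and its difference was 0.11 in let-7Tg (adjusted p = 0.368). It then fell by 0.94, 1.07 and 0.65 in the 3 genotypes and ended below its naive level in each, by -0.40, -0.27 and -0.54. The lin28Tg value among these was not called without naive replicate 2 (0.103) or 3 (0.0555) or day 5 replicate 2 (0.185) or 3 (0.367), and was -0.13 without the last. Without the filter it was -0.24 (adjusted p = 0.0667). Dicer1 was called higher at 12 h than in naive cells in lin28Tg alone (0.41, adjusted p = 0.00486). It differed by 0.04 in WT (adjusted p = 0.812) and by -0.26 in let-7Tg (adjusted p = 0.0677), and without scaling the lin28Tg value was 0.18 (adjusted p = 0.176). The test of the difference between lin28Tg and WT in that change gave 0.38 (adjusted p = 0.219), so a change particular to lin28Tg is not shown.

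At day 5 Dicer1 was above naive cells in lin28Tg (0.33, adjusted p = 0.0207) and below them in let-7Tg (-0.46, adjusted p = 0.00264), with -0.26 in WT (adjusted p = 0.0723). The lin28Tg call was lost without naive replicate 2 (0.26, adjusted p = 0.0991) and without scaling (0.16, adjusted p = 0.235). The fall of Dicer1 from 12 h to day 5 in WT (-0.29, adjusted p = 0.0407) was lost without 12 h replicate 1, 2 or 3 (0.0972, 0.0995 and 0.0653) and day 5 replicate 1 or 2 (0.308 and 0.0879), and was -0.15 without day 5 replicate 1. It was also lost without scaling (0.297), with median of ratios scaling (0.0665), without the filter (0.0719) and with only the 6 libraries compared (0.186).

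Among the Argonautes, Ago2 rose from naive to 12 h in every genotype (0.61 in WT, 0.68 in lin28Tg and 0.43 in let-7Tg). From 12 h to day 5 it fell by 0.67 in WT (adjusted p = 0.000148) and by 0.34 in let-7Tg (adjusted p = 0.0316), and differed by -0.19 in lin28Tg (adjusted p = 0.234), where it ended 0.50 above naive cells (adjusted p = 0.0024). The let-7Tg rise was lost without naive replicate 2 (0.26, adjusted p = 0.0857) and without scaling (0.20, adjusted p = 0.212). Its fall was lost without 12 h replicate 1 or 2 (0.0949 and 0.0803), day 5 replicate 1 or 2 (0.128 and 0.0808) and without scaling (0.204). Ago3 was not called from naive to 12 h in any genotype (0.13, -0.11 and 0.10) and fell to day 5 in WT (-0.70) and let-7Tg (-0.78), with -0.17 in lin28Tg (adjusted p = 0.257).

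Ago1 rose at 12 h in WT (0.34) and let-7Tg (0.43), with 0.16 in lin28Tg (adjusted p = 0.126), and fell to day 5 by 0.68, 0.43 and 0.62 in WT, lin28Tg and let-7Tg. Without scaling between libraries the rise was 0.09 in WT (adjusted p = 0.370) and 0.20 in let-7Tg (adjusted p = 0.0563). Its day 5 level was below naive cells in WT (-0.33, adjusted p = 0.00274) and in lin28Tg (-0.27, adjusted p = 0.0121), the latter lost without naive replicate 1 (-0.23, adjusted p = 0.0533) or day 5 replicate 2 (-0.12, adjusted p = 0.279). Dis3l2 rose by 0.42, 0.40 and 0.38 at 12 h and fell by 0.28, 0.34 and 0.47 to day 5, and its 12 h rise in lin28Tg and let-7Tg was lost without scaling (0.17 and 0.15, adjusted p 0.0611 and 0.0856). The fall of Dis3l2 in WT was lost without scaling (-0.13, adjusted p = 0.141) and with only the 6 libraries compared (0.0641). Unscaled FPKM moved the median of all genes by -0.18 to -0.24 from naive to 12 h, which is the size of these small changes.

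Whether a genotype difference itself changed between stages was tested as an interaction over all 27 libraries. For lin28Tg against WT, 1 member was called for 12 h against naive cells (8.04% of all genes were called) and 2 for day 5 against naive cells (14.8%). These were Lin28b at both stages, with -2.29 and -1.48 (not called with voom weights, at -3.24 and -0.11), values that depend on the pseudocount because WT held 0 to 5 reads, and Dicer1 at day 5, whose difference was 0.59 larger than in naive cells (0.23 to 0.96, adjusted p = 0.0241). Lin28b is the transgene, so Dicer1 at day 5 is the only called member of the machinery. Without lin28Tg naive replicate 2 or WT day 5 replicate 1 the Dicer1 value was 0.52 (adjusted p = 0.0761) and 0.44 (adjusted p = 0.0803). The values for Ago2 and Dgcr8 at day 5 were 0.56 (adjusted p = 0.0521) and -0.40 (adjusted p = 0.0835). For let-7Tg against WT no member was called by limma or by voom at 12 h (0.0761% of all genes) or day 5 (0.346%), and 1 and 0 members had an unadjusted p below 0.05. That 1 was Tarbp2 at 12 h, with -0.43 (adjusted p = 0.398).

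The wider machinery was followed in 74 genes on 7 lists, of which 61 were found in the files and 57 to 59 were tested, and 13 let-7 transcripts were not found by symbol. Against WT, 14 of 57 were called in naive lin28Tg cells (4 higher and 10 lower), 0 of 58 at 12 h and 0 of 58 at day 5, where 34.9%, 8.49% and 4.35% of all genes were called, while 19, 15 and 8 were below an unadjusted p of 0.05 and voom called 16, 4 and 1. The naive count was 8 without WT replicate 2, 7 without WT replicate 3 and 8 without lin28Tg replicate 2. In let-7Tg cells the counts were 0, 2 and 0, against 0.935%, 3.26% and 0.937% of all genes, with 10, 10 and 6 below an unadjusted p of 0.05 and 0, 2 and 0 called by voom. The percentages apply to the adjusted limma calls only, and the counts by unadjusted p or by voom are given without a background. No gene of these lists was called at 2 or more stages in the same direction.

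These genes are named after their values were seen. In naive lin28Tg cells Prkra, which encodes the Dicer partner PACT, differed by 0.98 (adjusted p = 0.0106). Ran, the GTPase that drives exportin-5, differed by 0.41 (adjusted p = 0.00219), and Tent2, a cytoplasmic nucleotidyltransferase, by 0.35 (adjusted p = 0.0313). The fourth higher gene was Ago4, at 0.745, 2.01 and 1.46 FPKM in naive lin28Tg and 0.321, 0.358 and 0.199 FPKM in naive WT. The 10 lower genes included the 3 GW182 genes Tnrc6a (-0.34), Tnrc6b (-0.56) and Tnrc6c (-0.41). Dcp1b, Edc4, Pan2, Parn, Zswim8 and Ddx5 were also lower, between -0.40 and -0.30. The naive lin28Tg libraries also held the highest myeloid and erythroid sums, and the part of other cell types in these naive differences was not tested. In let-7Tg cells at 12 h Tnrc6b, whose product links Argonaute to deadenylation, differed by 0.61 (adjusted p = 0.0468) and Trim25, an RNA-binding ubiquitin ligase, by -0.47 (adjusted p = 0.0435). The let-7Tg count of 2 at 12 h was 0 without WT replicate 1 or 3 or let-7Tg replicate 2 or 3, 1 without WT replicate 2 and 5 without let-7Tg replicate 1.

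From naive to 12 h in WT, 55 of 59 list genes changed, 36 higher and 19 lower, where 71.0% of all genes were called. Cofactors of primary transcript processing rose for the most part (8 higher and 2 lower of 11, median log2 difference 1.06 against -0.03 over all genes), as in Hnrnpa1 (1.96) and Ilf2 (1.54), both RNA-binding proteins. The partners of Argonaute were divided (6 higher and 7 lower of 13, median -0.40), with Eif4enif1, which binds the cap-binding protein, at 1.93, and the helicase Mov10 at -2.39. The GW182 genes Tnrc6a, Tnrc6b and Tnrc6c all fell, by 0.40, 1.75 and 1.07. Of the let-7 precursor regulators tested, 1 rose and 3 fell of 5, and the uridylyltransferases Tut4 and Tut7 were among the latter, with -0.67 and -0.73. Deadenylation and decapping genes had 13 higher and 5 lower of 19 (median 0.29), with the CCR4-NOT subunit Cnot9 at 1.27 and the exonuclease Xrn1 at -1.05, and small RNA turnover had 6 higher and 1 lower of 7 (median 0.56).

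Over the 27 libraries, log2 levels of Drosha and Xpo5 ran together with Pearson r = 0.935, Dgcr8 and Xpo5 with 0.884, Xpo5 and Ago2 with 0.849, and Drosha and Ago2 with 0.830. The lowest values were for Lin28b with Ago3 (-0.468) and with Dis3l2 (-0.409). The genes most like Drosha were Gorasp2 (0.979), Eif3i (0.978) and Aprt (0.978), and those most like Ago2 were Senp5 (0.924), Smarcad1 (0.913) and Vps37a (0.905). Dicer1 was most like Mex3a (0.888), Stat3 (0.825) and Atxn7l3b (0.770), and Lin28b most like Il1rl1 (0.857), Rasl11a (0.856) and Gm15910 (0.856). These r values are descriptions over libraries that share stage, genotype and culture, and no test was made of them.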

How the data were processed

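The deposited values are FPKM, made by the authors (per the submitters' notes: TopHat2 2.0.9, Bowtie2 2.0.6, HTSeq 0.6.1, GRCm38/mm10) with no scaling between libraries. Strandedness and the treatment of reads shared by paralogs are not given in the sources used here. Further columns hold the authors' own comparisons and group means and were not used. Whole reads were recovered from the FPKM values for 100% of 462839 values above 0 (within 0.01 of a whole number) and gave the depth, 13862706 to 23591069 reads per library.

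FPKM were scaled by a trimmed mean of log ratios (30% of ratios and 5% of levels trimmed, factors 0.879 to 1.12) and tested as log2(FPKM + 0.5) with limma 3.58.1 in R 4.3.3 (intensity trend, Benjamini-Hochberg, threshold 0.05). Genotypes were compared within a stage over 9 libraries, and stages and interactions over 27. Genes needed the FPKM of 10 reads at median depth in 3 libraries and 15 reads in all. Every script that fits across genes was tested on simulated data. Replicates differed by more than sampling noise (mean chi-square per gene 4.40 to 58.1).

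Same-numbered libraries deviated together at day 5 (9 of 9 pairs over r = 0.1, mean 0.43, lowest 0.239), so the numbers were taken to pair the day 5 cultures, on this check of the data alone, and not in naive cells (mean 0.039) or at 12 h (0.054).

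The members and lists were chosen with earlier results of these data known. The naming rule took all 10 members, list genes called against WT at 2 or more stages in the same direction (up to 3 per list and direction), and the 3 genes most like Lin28b, Drosha, Dicer1 and Ago2. Other genes were named after their values were seen. Alternatives were other scalings, pseudocounts 0.1 and 1, no filter, no trend, a replicate block, voom weights, other sets of libraries in the fit, and each library left out.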

Additional observations from a re-analysis of the deposited data

Results flagged for a closer look

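3 genotype differences passed a test of their change between stages, an interaction in limma over 27 libraries. For Lin28b in lin28Tg against WT it was -2.29 for 12 h against naive cells (adjusted p = 2.47e-07) and -1.48 for day 5 against naive cells (adjusted p = 1.71e-05). Both values depend on the pseudocount, since WT held almost no Lin28b reads. The reads behind them were 19416 in naive, 2923 in 12 h and 6552 in day 5 lin28Tg libraries, against 5, 7 and 0 in WT. The read ratios were 2979 in naive cells (95% interval 1276.5 to 9177), 390.0 at 12 h (189 to 971) and at least 1957 at day 5, so a smaller genotype difference at day 5 is not shown. Voom called neither (-3.24, adjusted p = 0.179, and -0.11, adjusted p = 0.971). For Dicer1 the interaction at day 5 was 0.59 (adjusted p = 0.0241): naive lin28Tg and WT libraries overlapped at 13.01 to 15.6 FPKM, and at day 5 lin28Tg was at 15.2 to 17.4 FPKM against 9.31 to 14.1 FPKM in WT. Without lin28Tg naive replicate 2 or WT day 5 replicate 1 it was 0.52 (adjusted p = 0.0761) and 0.44 (adjusted p = 0.0803).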

How the results depend on the processing

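No call changed direction under any alternative tried. Of 86 calls on members, 60 held under all alternatives and all left-out libraries, 34 of 794 values under alternatives and 62 of 534 with a library left out no longer passed. Counts of members called moved by over 1.5 times as follows: lin28Tg against WT in naive cells from 1 to 2 without scaling, with median of ratios scaling and with the replicate block (Tarbp2 without scaling, Ago3 with the block), lin28Tg against WT at 12 h from 5 to 3 without the filter and without the intensity trend, let-7Tg against WT at 12 h from 1 to 0 with only the 6 libraries compared, and at day 5 lin28Tg against WT from 1 to 4 and let-7Tg against WT from 0 to 1, both with the replicate block and with all 27 libraries in one fit. With voom the lin28Tg interactions went from 1 to 0 at 12 h and from 2 to 1 at day 5. The cause was not tested. With 1 library left out, the counts for lin28Tg against WT were 1 to 2 in naive cells, 2 to 4 at 12 h and 1 to 1 at day 5, for let-7Tg against WT 0 to 0, 0 to 1 and 0 to 1, and for lin28Tg against let-7Tg 2 to 3, 4 to 6 and 3 to 6. For 12 h against naive, day 5 against 12 h and day 5 against naive they were 7 to 7, 8 to 9 and 4 to 5 in WT, 8 to 8, 7 to 7 and 5 to 7 in lin28Tg, and 5 to 6, 7 to 9 and 4 to 5 in let-7Tg. For the interactions they were 1 to 1 and 1 to 3 in lin28Tg and 0 to 0 and 0 to 0 in let-7Tg. The replicate block moved no other count of members by over 1.5 times. Without scaling, the share of called genes that were higher went from 54.5% to 66.4% for lin28Tg against WT and from 32.3% to 51.0% for let-7Tg against WT in naive cells, and at day 5 from 61.5% to 72.4% for let-7Tg against WT and from 50.3% to 35.0% for lin28Tg against let-7Tg. Lin28b in WT and let-7Tg cells, at 0 to 5 reads, is below what this depth can order.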
